A study of Mus musculus with 32 samples.

Results

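Deletion of floxed Myd88 by a Tie2-Cre transgene was examined in one sorted population of tumour-associated macrophages, called population C, which was gated as CD11b+ Ly6C- MHCII+. The arrays were chosen from the sample titles alone. All Mouse Gene 2.0 ST arrays of population C were taken, 8 of the 32 arrays of the series, and the 4 from hosts carrying Myd88flox/flox; tie2-Cre were compared with the 4 from hosts without it. TNFR1 status, which each side held in both forms, entered as a blocking factor. The tumour was EG7, a thymoma line of the T lymphocyte lineage that can be transplanted, and RNA from the sorted cells was hybridised at 100 ng per array.

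Each of the 4 host genotypes had 2 arrays. WT hosts carried neither change, and TNFR1-/- hosts lacked tumour necrosis factor receptor 1, the product of Tnfrsf1a, in every cell. Myd88flox/flox; tie2-Cre hosts, here called conditional hosts, lost Myd88 where the Cre was active and kept TNFR1. Hosts with all of these alleles, Myd88flox/flox; tie2-Cre; TNFR1-/-, are here called double-knockout hosts. In every group the transplanted tumour cells kept their own Myd88 and TNFR1. Neither the age of the mice nor a floxed control without Cre, or a Cre control without the floxed allele, is given by the labels. They are also silent on whether the 2 arrays of a genotype stem from different animals. The p-values thus rest on the spread among these samples, and part or all of that spread may be technical.

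Myd88 is the adaptor that interleukin-1 family receptors, and Toll-like receptors other than TLR3, use to reach the kinases of the IRAK family, NF-kB and MAP kinases. In macrophages this route induces inflammatory cytokines such as TNF, together with brakes such as interleukin-10, and in some cell types it also activates the interferon regulatory factor IRF7. The Tie2 promoter is active in endothelium and in the precursors of blood cells, so the Cre acts in macrophages but also in host endothelium and other leukocytes. A difference in sorted macrophages can therefore be a response to Myd88 loss in those macrophages or in another host cell, and these cannot be told apart here. In bulk samples, fewer cells of a type and less RNA per cell cannot be told apart either.

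The values are log2 signals. Array medians lay between 5.31 and 5.4 over all probe sets. Over the genes that passed the detection filter, the correlation between the 2 arrays of a genotype was 0.977 to 0.987, against 0.964 or more for any pair. Genes of the sort matched it for the most part. The MHC class II gene H2-Aa read 11.94 to 12.37, and the neutrophil gene Ly6g 4.33 to 5.49, near the 40th percentile of an array (4.92 to 5.01). Ly6c2, one of the genes for the Ly6C protein that the gate excluded, nevertheless read 7.88 to 9.99. Its level was 9.66 and 9.14 in WT, 9.05 and 9.99 in TNFR1-/-, 8.54 and 7.88 in conditional and 9.13 and 8.15 in double-knockout hosts, and its difference of -1.03 ± 0.24 (SE) was not called (adjusted p = 0.146). In the Ly6C+ macrophages of population A, taken up below and read on the same chip, Ly6c2 was higher, at 11.31 to 12.93.

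Sex-linked transcripts were not balanced, and the labels do not give the sex of the hosts. Xist, which coats the inactive X chromosome in females, read 10.14 and 10.29 in WT, 5.60 and 9.83 in TNFR1-/-, 4.97 and 5.68 in conditional, and 5.19 and 10.44 in double-knockout hosts. It was thus high on 3 of the 4 undeleted and 1 of the 4 deleted arrays. Between conditional and WT hosts, Xist level and Myd88 status cannot be told apart. Between double-knockout and TNFR1-/- hosts each side held 1 array of either kind. The Y-linked gene Eif2s3y did not simply mirror Xist. It read 6.29 and 4.40 in WT, 6.91 and 5.92 in TNFR1-/-, 6.95 and 6.63 in conditional, and 7.33 and 3.38 in double-knockout hosts. WT replicate 1 and TNFR1-/- replicate 2 thus read high for Xist with Eif2s3y above its level on the other arrays of high Xist, so these values do not settle the sex of each sample.

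The targeted gene fell on every deleted array. The Myd88 signal was 9.78 and 9.22 in WT, 9.72 and 10.05 in TNFR1-/-, 7.49 and 7.53 in conditional, and 8.76 and 7.97 in double-knockout hosts. The groups did not overlap, and within the deleted group replicate 1 of the double knockout kept the most signal. The difference was -1.76 ± 0.18 (SE), or 3.38-fold, with an adjusted p of 0.00335. The exons that the floxed allele removes were not given in the sources used here. The remaining signal therefore does not give the share of cells that kept the gene. Of 131 other genes tested within 10 Mb of Myd88, 0 were called by limma and 10 had an unadjusted p under 0.05, with a lowest adjusted p of 0.239 for Ctnnb1. Tnfrsf1a read 8.55 and 7.81 in WT, 7.56 and 7.87 in TNFR1-/-, 8.43 and 8.04 in conditional, and 7.55 and 7.70 in double-knockout hosts. Its Myd88 difference was -0.02 ± 0.15 (adjusted p = 0.989), with overlapping groups.

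Over all genes, 29 of 15193 tested (0.191%) passed an adjusted p of 0.05 in limma, 17 higher and 12 lower with Myd88 deleted, where 1308 had an unadjusted p under 0.05. Of these 29, 28 are named genes, and for 21 the 4 deleted and 4 undeleted arrays did not overlap, 12 higher and 9 lower. Over all genes tested 2.17% had every deleted array above the others and 1.38% every one below. The median difference over all genes was 0.01. Every one of the 29 kept its sign when any single array was left out, which their choice on these same arrays in large part fixes. The number called was sensitive to single arrays. It was 4 without replicate 1 and 14 without replicate 2 of WT, 77 without replicate 1 and 1 without replicate 2 of TNFR1-/-, 15 without replicate 1 and 2 without replicate 2 of the conditional hosts, and 32 without replicate 1 and 8 without replicate 2 of the double-knockout hosts. Replicate 1 of the double knockout stood apart in another way. It lay closer to the undeleted level than its replicate 2 for 24 of the 29 genes, while replicate 1 of the conditional hosts lay closer than their replicate 2 for 16, and the origin of this was not tested. Myd88 kept its call in all 8 fits that left out an array, Cd81 in 7, Ephx1 in 6, and Itgax and Rnase2a in 5 each. With Xist added as a term, a setting chosen after seeing the data, 22 genes were called, and 15 of the 29 were among them. The 14 others were Anxa3, Ccl17, Chil3, Dcstamp, Egr1, Fdft1, Gpc1, Il1rl2, Kcnma1, Olfr684, Plxdc2, Socs2, Stx11 and an unnamed predicted gene.

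Genes of inflammatory mediators were among those that fell. Of 22 inflammatory cytokine genes tested, 3 were called lower (Tnf, Il10 and Tnfsf9) and 0 higher, where 0.079% of all genes were called lower. In all, 18 of the 22 had a negative and 4 a positive difference. The list's median difference was -0.18. This list and those below were drawn up with earlier results of these data known, so their counts are descriptions and not tests. Tnf, the cytokine that TNFR1 binds, read 10.98 and 10.84 in WT, 10.88 and 11.01 in TNFR1-/-, 10.28 and 10.05 in conditional, and 10.31 and 9.65 in double-knockout hosts. Both undeleted genotypes were at the same high level and all 4 deleted arrays lay below them. The fall was 0.85 ± 0.14, or 1.81-fold (adjusted p = 0.0263).

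Il10, which encodes the anti-inflammatory cytokine interleukin-10, also fell. Its signal was 7.57 and 7.71 in WT, 8.48 and 8.51 in TNFR1-/-, 7.14 and 7.08 in conditional, and 6.90 and 6.44 in double-knockout hosts. The groups were apart, with the highest level in TNFR1-/- and the lowest in double-knockout hosts. The difference was -1.18 ± 0.21, or 2.26-fold (adjusted p = 0.0489). Tnfsf9, the ligand of the T cell costimulator 4-1BB, read 8.52 and 7.84 in WT, 8.96 and 8.99 in TNFR1-/-, 7.43 and 7.53 in conditional, and 8.12 and 7.62 in double-knockout hosts. It was lower with Myd88 deleted within each TNFR1 background, although the pooled groups overlapped (-0.90 ± 0.16, adjusted p = 0.0452). Il1b read lower by a similar amount without being called (-0.70 ± 0.15, adjusted p = 0.114).

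Of 28 NF-kB targets and feedback genes, 0 were called by limma and 13 had an unadjusted p under 0.05. In all 24 had a negative difference and for 5 all deleted arrays lay below the others, as they did for 1.38% of all genes tested. The list's median was -0.28. Its member of smallest p was Nfkbiz, a nuclear IkB protein induced through Toll-like and interleukin-1 receptors. Nfkbiz read 9.90 and 9.34 in WT, 10.25 and 10.24 in TNFR1-/-, 8.86 and 8.74 in conditional, and 9.33 and 8.27 in double-knockout hosts. The lowest undeleted array lay just above the highest deleted one, and the difference of -1.13 ± 0.21 missed the threshold (adjusted p = 0.053). Ier3, an early response gene, and Ptgs2, the inducible prostaglandin synthase, had groups that did not overlap, with differences of -0.42 ± 0.10 and -0.64 ± 0.16 (adjusted p = 0.166 for each). The immediate-early and heat shock list had 1 of 25 genes called. This was Egr1, a growth-factor-induced transcription factor, at 9.21 and 8.99 in WT, 9.53 and 9.51 in TNFR1-/-, 8.41 and 8.48 in conditional, and 8.99 and 8.89 in double-knockout hosts. Egr1 fell by a like amount in both TNFR1 backgrounds (-0.62 ± 0.09, adjusted p = 0.0263). Immediate-early genes also respond to tissue digestion, which was not tested here.

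**Figure D1:**
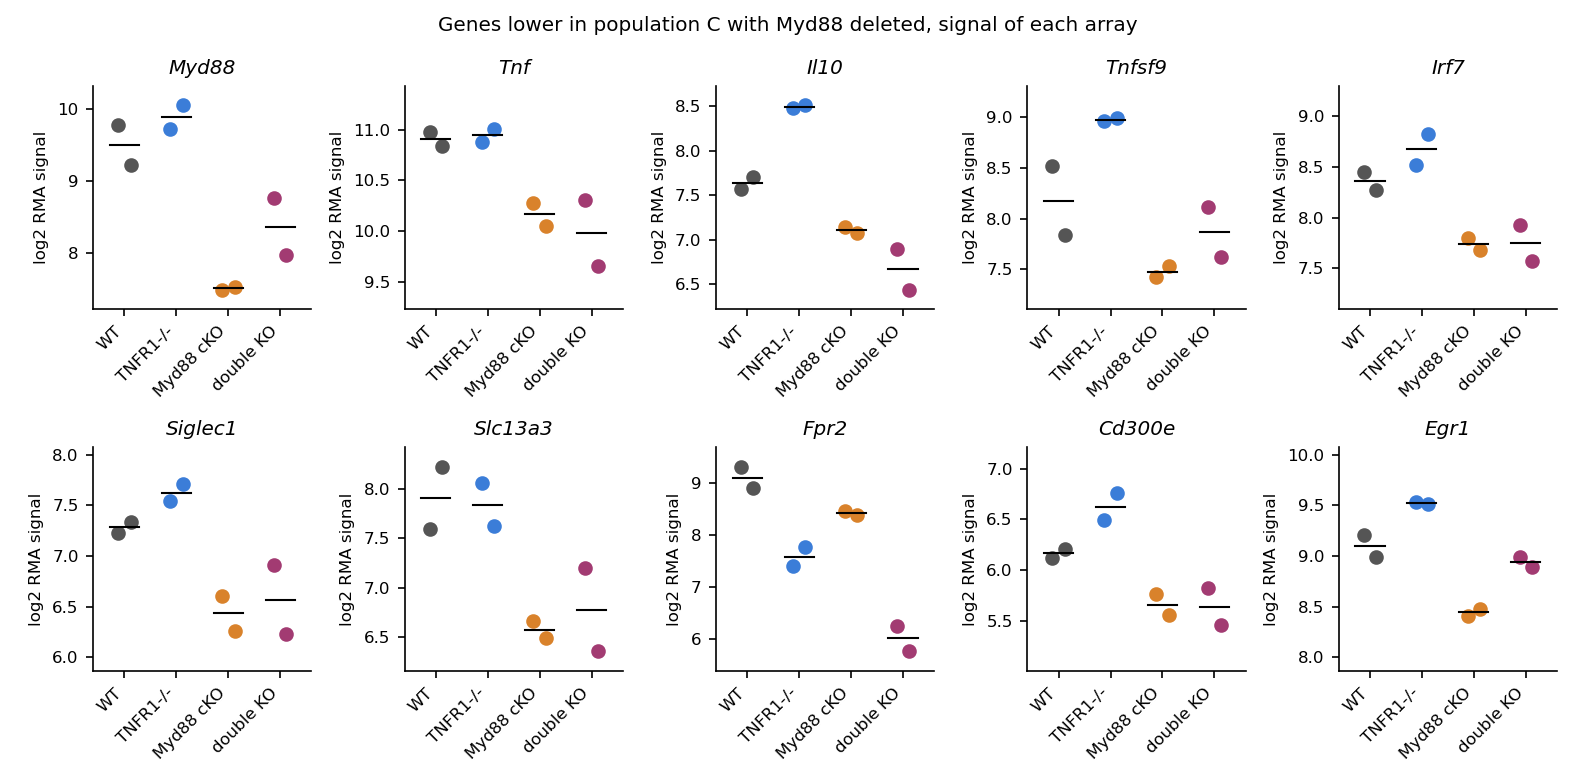
Log2 signal (vertical axes) of 10 genes called lower with Myd88 deleted, 1 point per array and a bar at the mean of the 2 arrays of each host genotype (Myd88 cKO, conditional hosts; double KO, double-knockout hosts). Both conditional arrays lie below both WT arrays, and both double-knockout arrays below both TNFR1-/- arrays, in all 10 panels, while Fpr2, Tnfsf9 and Egr1 overlap across TNFR1 backgrounds.

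Genes of the interferon response read lower with few calls. All 21 type I interferon genes tested had a negative difference, as had 7167 of all 15193 genes tested. Their median was -0.36 against 0.01 over all genes. Only 1 of them, Irf7, was called, where 0.079% of all genes were called lower. The list's mean signal overlapped between the groups. It was 7.51 and 7.40 in WT, 7.57 and 8.03 in TNFR1-/-, 7.24 and 7.06 in conditional, and 7.49 and 7.16 in double-knockout hosts. Irf7, the transcription factor that amplifies type I interferon, read 8.45 and 8.27 in WT, 8.52 and 8.83 in TNFR1-/-, 7.8 and 7.68 in conditional, and 7.93 and 7.57 in double-knockout hosts. Deleted and undeleted arrays were apart in both TNFR1 backgrounds (-0.77 ± 0.12, 1.71-fold, adjusted p = 0.0263). Oas3 and Ifit2, which encode antiviral effectors, also had groups that did not overlap (-0.54 ± 0.12, adjusted p = 0.115, and -0.58 ± 0.13, adjusted p = 0.141). Of 21 interferon-gamma response genes 0 were called and 9 had an unadjusted p under 0.05, and the median was -0.36. Siglec1, the sialic acid-binding macrophage lectin CD169, is itself interferon-inducible. It read 7.23 and 7.34 in WT, 7.54 and 7.71 in TNFR1-/-, 6.61 and 6.26 in conditional, and 6.91 and 6.23 in double-knockout hosts, and fell by 0.95 ± 0.14 (1.94-fold, adjusted p = 0.0263).

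The remaining genes that fell encode transport, receptor and membrane proteins. Slc13a3, a sodium-coupled dicarboxylate transporter, read 7.59 and 8.22 in WT, 8.06 and 7.62 in TNFR1-/-, 6.66 and 6.49 in conditional, and 7.2 and 6.36 in double-knockout hosts. Among called genes this was the largest fall after Myd88 itself, at -1.20 ± 0.19 (2.29-fold, adjusted p = 0.0263). Fpr2, a receptor of formyl peptides, was ordered by both alleles. Its signal was 9.31 and 8.90 in WT, 8.47 and 8.39 in conditional, 7.40 and 7.77 in TNFR1-/-, and 6.26 and 5.77 in double-knockout hosts. Conditional arrays were thus lower than WT but higher than TNFR1-/-, and the Myd88 difference over both backgrounds was -1.12 ± 0.18 (adjusted p = 0.0293). Cd300e, an activating receptor of monocytes, fell by 0.74 ± 0.13 (adjusted p = 0.0452), and Stx11, a syntaxin of vesicle fusion, by 0.57 ± 0.09 (adjusted p = 0.0293). Olfr684, an olfactory receptor gene, fell by 0.64 ± 0.11 (adjusted p = 0.0293). Its signals of 4.71 to 5.73 lay close to the detection filter, and the family holds close copies, so its identity is uncertain.

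Cd81, Ephx1 and Itgax had the smallest adjusted p among genes that rose. Cd81, a tetraspanin, read 9.67 and 9.75 in WT, 9.83 and 9.63 in TNFR1-/-, 10.60 and 10.86 in conditional, and 10.67 and 10.48 in double-knockout hosts. The 4 undeleted arrays lay within a narrow band and every deleted array well above it, in both TNFR1 backgrounds alike. The rise was 0.93 ± 0.10, or 1.91-fold (adjusted p = 0.00497). Itgax, the CD11c integrin chain of dendritic cells and many macrophages, read 9.29 and 9.16 in WT, 9.0 and 8.91 in TNFR1-/-, 10.12 and 10.38 in conditional, and 9.57 and 9.85 in double-knockout hosts. Its groups were apart, and the rise was 0.89 ± 0.11 (1.85-fold, adjusted p = 0.00754). Ephx1, a microsomal epoxide hydrolase, read 6.68 and 6.85 in WT, 7.07 and 6.79 in TNFR1-/-, 7.75 and 7.70 in conditional, and 7.8 and 7.65 in double-knockout hosts. The deleted arrays agreed closely with each other and lay above all others (0.88 ± 0.10, 1.84-fold, adjusted p = 0.00528).

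Smaller rises with groups that did not overlap were seen for Anxa3, a calcium-dependent phospholipid-binding annexin (0.68 ± 0.11, adjusted p = 0.0263), and Plxdc2, a transmembrane protein with a plexin-like domain (0.69 ± 0.12, adjusted p = 0.0496). Il1rl2, the receptor chain of interleukin-36, which itself signals through Myd88, rose by 0.59 ± 0.10 (adjusted p = 0.0483). Dcstamp, a membrane protein needed for cell fusion of macrophages and osteoclasts, rose by 0.54 ± 0.10 (adjusted p = 0.0483). Gpc1, a cell-surface heparan sulphate proteoglycan, rose by 0.84 ± 0.15 (adjusted p = 0.0483) with overlapping groups, or 0.39 with the mean of its probe sets (adjusted p = 0.206). It fell outside the rule for named genes and was chosen after its values were seen. The list of TLR, IL-1R and Myd88 pathway components held 34 tested genes, of which Il1rl2 rose, Irf7 fell and the others were not called.

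A large rise was that of Kcnma1, the pore subunit of the large-conductance calcium-activated potassium channel. It read 8.57 and 9.04 in WT, 9.10 and 8.48 in TNFR1-/-, 13.05 and 12.66 in conditional, and 9.36 and 13.01 in double-knockout hosts. On 3 of the 4 deleted arrays it was among the high signals, whereas replicate 1 of the double knockout lay just above the undeleted arrays. The rise was 3.22 ± 0.58, or 9.33-fold, with an adjusted p of 0.0489. It was 4.12 without that array, which was picked after its values were seen. Kcnma1 kept its call in only 2 of the 8 fits that left out an array. With the mean of the gene's probe sets in place of the brightest one the rise was 1.61, and the call was lost (adjusted p = 0.0646). Chil3, the chitinase-like protein Ym1, showed the same array between the groups. Its signal was 7.28 and 6.59 in WT, 7.92 and 6.47 in TNFR1-/-, 10.61 and 10.33 in conditional, and 8.10 and 9.99 in double-knockout hosts. It rose by 2.69 ± 0.43 (6.46-fold, adjusted p = 0.0263), though near-identical chitinase-like genes could share its probes. Without that array its rise was 3.24, and Chil3 too kept its call in only 2 of the 8 fits that left out an array.

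**Figure D2:**
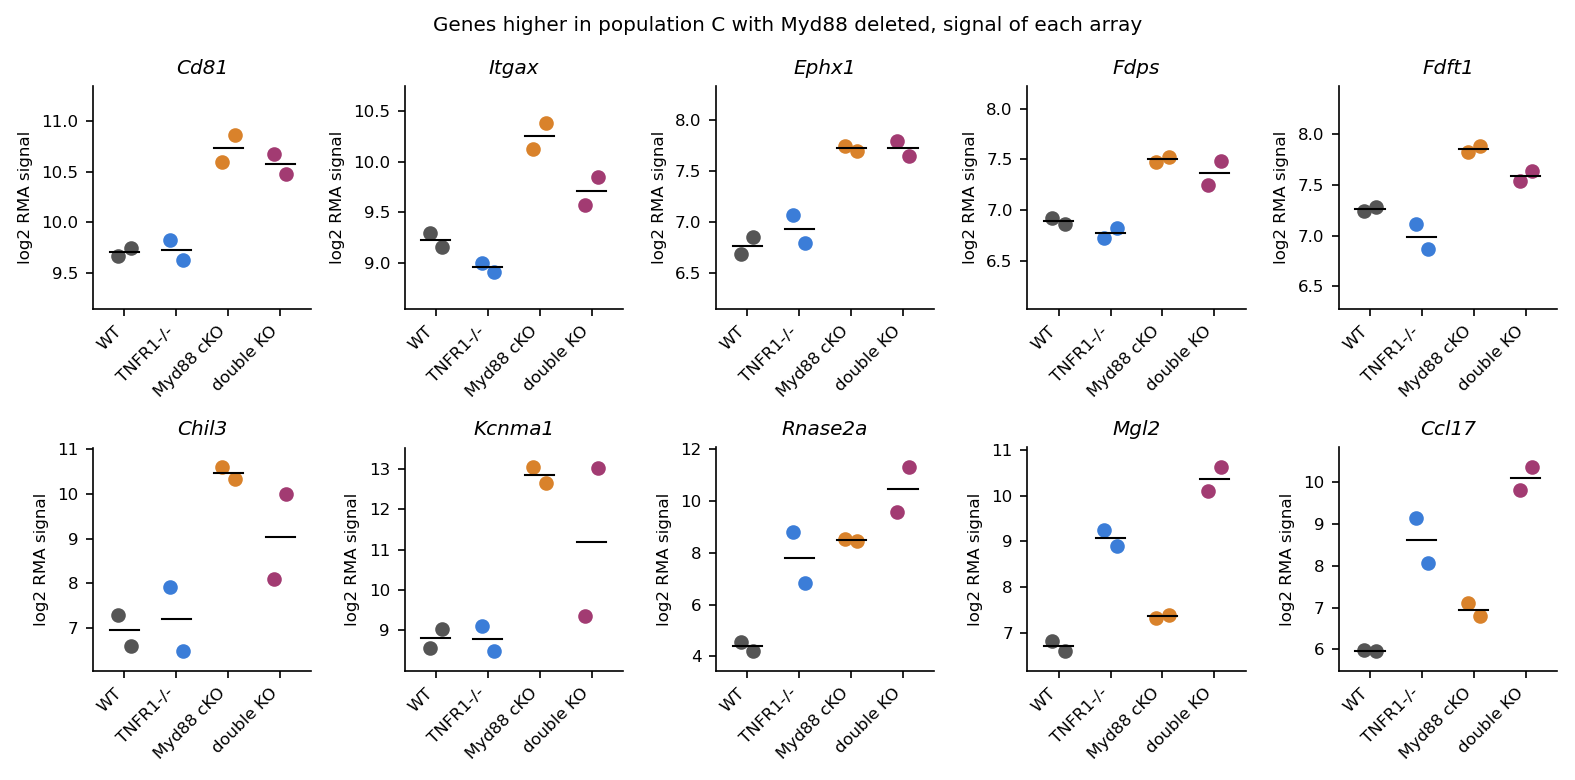
Log2 signal (vertical axes) of 10 genes called higher with Myd88 deleted, drawn as 1 point per array with a bar at each genotype's mean (Myd88 cKO, conditional hosts; double KO, double-knockout hosts). Cd81 and Ephx1 separate cleanly, Kcnma1 and Chil3 show 1 double-knockout array near the undeleted level, and Rnase2a, Mgl2 and Ccl17 are also higher in TNFR1-/- than in WT hosts.

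Genes of the alternative activation programme, which interleukin-4 and interleukin-13 induce through STAT6, were among those that rose. Of 30 tested, 5 were called higher (Rnase2a, Socs2, Chil3, Mgl2 and Ccl17) and 0 lower, where 0.112% of all genes were called higher. Because the members were chosen with earlier results of these data known, this count is no independent support for a change of the programme. In all, 24 had a positive difference, and the median was 0.25. Apart from Chil3, each gene called in this list also read higher on both TNFR1-/- than on both WT arrays, a contrast that was not tested here. Mgl2, a galactose-type lectin of macrophages and dendritic cells, read 6.82 and 6.60 in WT, 7.33 and 7.40 in conditional, 9.24 and 8.89 in TNFR1-/-, and 10.11 and 10.63 in double-knockout hosts. Each deleted genotype lay above its own TNFR1-matched control, so the pooled groups overlapped while the fit with TNFR1 as a block gave 0.98 ± 0.16 (1.97-fold, adjusted p = 0.0263).

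Ccl17, a chemokine that attracts T cells bearing CCR4, followed the same order. It read 5.99 and 5.96 in WT, 7.10 and 6.80 in conditional, 9.14 and 8.07 in TNFR1-/-, and 9.80 and 10.35 in double-knockout hosts, a Myd88 rise of 1.22 ± 0.20 (2.33-fold, adjusted p = 0.0349). Rnase2a, a ribonuclease of the eosinophil-associated family, read 4.57 and 4.2 in WT, 8.53 and 8.46 in conditional, 8.80 and 6.83 in TNFR1-/-, and 9.59 and 11.32 in double-knockout hosts. Both WT arrays lay below the 40th percentile of an array, where a signal is not told from background, and all other arrays well above it. The fitted Myd88 difference was 3.38 ± 0.43 (adjusted p = 0.00826). It gives no fold because of the WT arrays, and the family holds near-identical copies that could share probes. Socs2, a feedback inhibitor of STAT signalling, rose by 1.18 ± 0.18 (adjusted p = 0.0263), or 0.70 with the mean of its probe sets (adjusted p = 0.0575). Retnla, a secreted resistin-like protein, and Ccl24, an eotaxin, had large differences that were not called (1.60 ± 0.32, adjusted p = 0.0769, and 1.70 ± 0.36, adjusted p = 0.0924). Neither Il4ra nor Stat6, the receptor chain and factor of this route, was called (-0.05 ± 0.15 and -0.15 ± 0.10).

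Promoters of the genes that rose were searched on both strands, in the 250 bases before the start, for TTC and GAA separated by 4 bases, the spaced half-sites that STAT6 can bind. The letters occurred in 2 of the 9 genes called higher for which RefSeq promoters (GRCm38.p6) were at hand, Ccl17 and Itgax, in 0 of 7 called lower, in 4 of 21 of the alternative activation list (Ccl17, Cd209e, Pdcd1lg2 and Retnla) and in 6.76% of 27025 genes with a promoter. The Ccl17 and Itgax windows are shown because both genes rose and both carry the letters, with the match in capitals. It begins 154 bases before the start in Ccl17 (chr8:94810203-94810452, plus strand) and 127 bases before it in Itgax (chr7:128129300-128129549, plus strand). A match is a description of the sequence and says nothing of binding.
Ccl17: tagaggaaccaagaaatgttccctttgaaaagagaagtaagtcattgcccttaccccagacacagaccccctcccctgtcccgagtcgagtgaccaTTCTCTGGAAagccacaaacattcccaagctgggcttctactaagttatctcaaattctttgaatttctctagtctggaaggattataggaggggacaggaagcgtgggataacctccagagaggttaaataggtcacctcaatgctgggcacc
Itgax: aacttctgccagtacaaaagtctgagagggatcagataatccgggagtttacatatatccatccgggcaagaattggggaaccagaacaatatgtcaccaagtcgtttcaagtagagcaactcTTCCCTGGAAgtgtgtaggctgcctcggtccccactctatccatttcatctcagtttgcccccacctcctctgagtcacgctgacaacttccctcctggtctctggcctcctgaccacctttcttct

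Enzymes of sterol synthesis were also among the genes that rose. Fdps, which makes farnesyl diphosphate, read 6.92 and 6.86 in WT, 6.73 and 6.82 in TNFR1-/-, 7.48 and 7.52 in conditional, and 7.25 and 7.49 in double-knockout hosts. Fdft1, the squalene synthase of the next step, read 7.24 and 7.28 in WT, 7.11 and 6.87 in TNFR1-/-, 7.82 and 7.88 in conditional, and 7.54 and 7.64 in double-knockout hosts. Both had groups that did not overlap, with rises of 0.60 ± 0.09 and 0.59 ± 0.09 (adjusted p = 0.0263 for each). A list of the whole pathway was prompted by these genes and drawn up after their values were seen. It held 18 tested genes, Fdps and Fdft1 among them as its only calls. With those 2 included, 17 had a positive difference, 7 had all deleted arrays above the others (2.17% of all genes did), and the median was 0.30. Those not called included Hmgcs1, the synthase before the rate-limiting reductase (0.53 ± 0.10, adjusted p = 0.0577), Dhcr7, the last reductase of cholesterol synthesis (0.42, adjusted p = 0.166), and Sqle, the squalene epoxidase (0.36 ± 0.10, adjusted p = 0.213). The promoter of Hmgcs1 held TCACNCCAC, the letters of a sterol regulatory element, as did 1 of 15 promoters of the list, its own, and 1.22% of all genes. It lies on chr13:119690101-119690350 (plus strand), with the match in capitals 137 bases before the start, and is shown as the only one of the list with these letters.
Hmgcs1: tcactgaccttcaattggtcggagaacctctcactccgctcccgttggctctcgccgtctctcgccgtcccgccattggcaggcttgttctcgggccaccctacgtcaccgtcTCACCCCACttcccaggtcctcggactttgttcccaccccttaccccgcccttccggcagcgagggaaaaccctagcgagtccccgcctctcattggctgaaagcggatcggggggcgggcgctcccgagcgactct

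Further searches of the same windows found GAAA repeated after a spacer of 2 bases, the element that interferon regulatory factors bind, in 1 of the 7 promoters of genes called lower (Myd88) against 3.46% of all genes, and the NF-kB consensus in 0 of 7 against 4.46%.

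Other programmes had few calls, though some held many genes at an unadjusted p under 0.05. For scale, 1308 of all 15193 genes tested had an unadjusted p under 0.05, 0.112% were called higher and 0.079% lower. Of 16 MHC class II presentation genes 0 were called, with 1 at an unadjusted p under 0.05, and of 16 TNF receptor pathway genes 1 was (Tnf), with medians of -0.01 and -0.02. Hypoxia and glycolysis (22 genes) and amino acid stress (18) had 0 calls in limma and 0 genes at an unadjusted p under 0.05. Prostaglandin and leukotriene synthesis (14), lipid and cholesterol handling (18), and arginine, itaconate and nitric oxide enzymes (13) had 0 calls too, with 4, 5 and 5 genes at an unadjusted p under 0.05. Arg1, the arginase of alternatively activated macrophages, differed by 0.39 ± 0.22 (adjusted p = 0.693). In the same list Nos2 and Slc7a2 differed in opposite directions, with overlapping groups and no call. Nos2 differed by -0.63 ± 0.16 (adjusted p = 0.209) and Slc7a2 by 0.93 ± 0.25 (adjusted p = 0.235). Matrix remodelling and angiogenesis genes (27) had 0 calls and 9 genes at an unadjusted p under 0.05. In 3 of the 27 all deleted arrays lay above the others, as they did for 2.17% of all genes tested. Timp2, an inhibitor of matrix proteases, was one (0.58 ± 0.11, adjusted p = 0.0621), while the growth factor Igf1 had overlapping groups (0.86 ± 0.17, adjusted p = 0.0598). Of 28 cell cycle genes 27 had a positive difference, as had 8026 of all 15193 genes tested. An unadjusted p under 0.05 was seen for 10 of the 28, and 0 were called. The median of the cell cycle genes was 0.17, with 0.03 in TNFR1-intact and 0.43 in TNFR1-/- hosts. Lectins and scavenger receptors had 1 call in 18 (Fpr2), checkpoint ligands and costimulators 1 in 18 (Tnfsf9), and chemokines 1 in 23 (Ccl17).

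Markers of other cell types were read beside these results, and their part in them was not tested. Mature macrophage markers had 0 of 24 called and 7 at an unadjusted p under 0.05, and their mean signal was 9.20 to 9.49 on undeleted and 9.39 to 9.64 on deleted arrays. Monocyte markers had a negative difference for 14 of 18, with a median of -0.21 and 9 at an unadjusted p under 0.05, and their means were 8.29 to 8.77 and 8.46 to 8.61. The 1 of them called, Chil3, went the other way and rose. Dendritic cell markers had 2 of 17 called, Itgax and Ccl17, both higher, where 0.112% of all genes were. The list held 8 negative differences, its median was 0.02, and its means were 6.63 to 7.29 and 6.71 to 7.57. Neutrophil (11), T lymphocyte and EG7 (14), B lymphocyte (7), natural killer (5), eosinophil and mast cell (8), fibroblast (10) and endothelial markers (8) had 0 calls each in limma, with at most 1 gene a list at an unadjusted p under 0.05. T lymphocyte and EG7 markers averaged 5.91 to 6.29 on undeleted and 5.93 to 6.36 on deleted arrays, and endothelial markers 5.97 to 6.09 and 5.81 to 5.99. No red blood cell gene passed the detection filter.

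**Figure D3:**
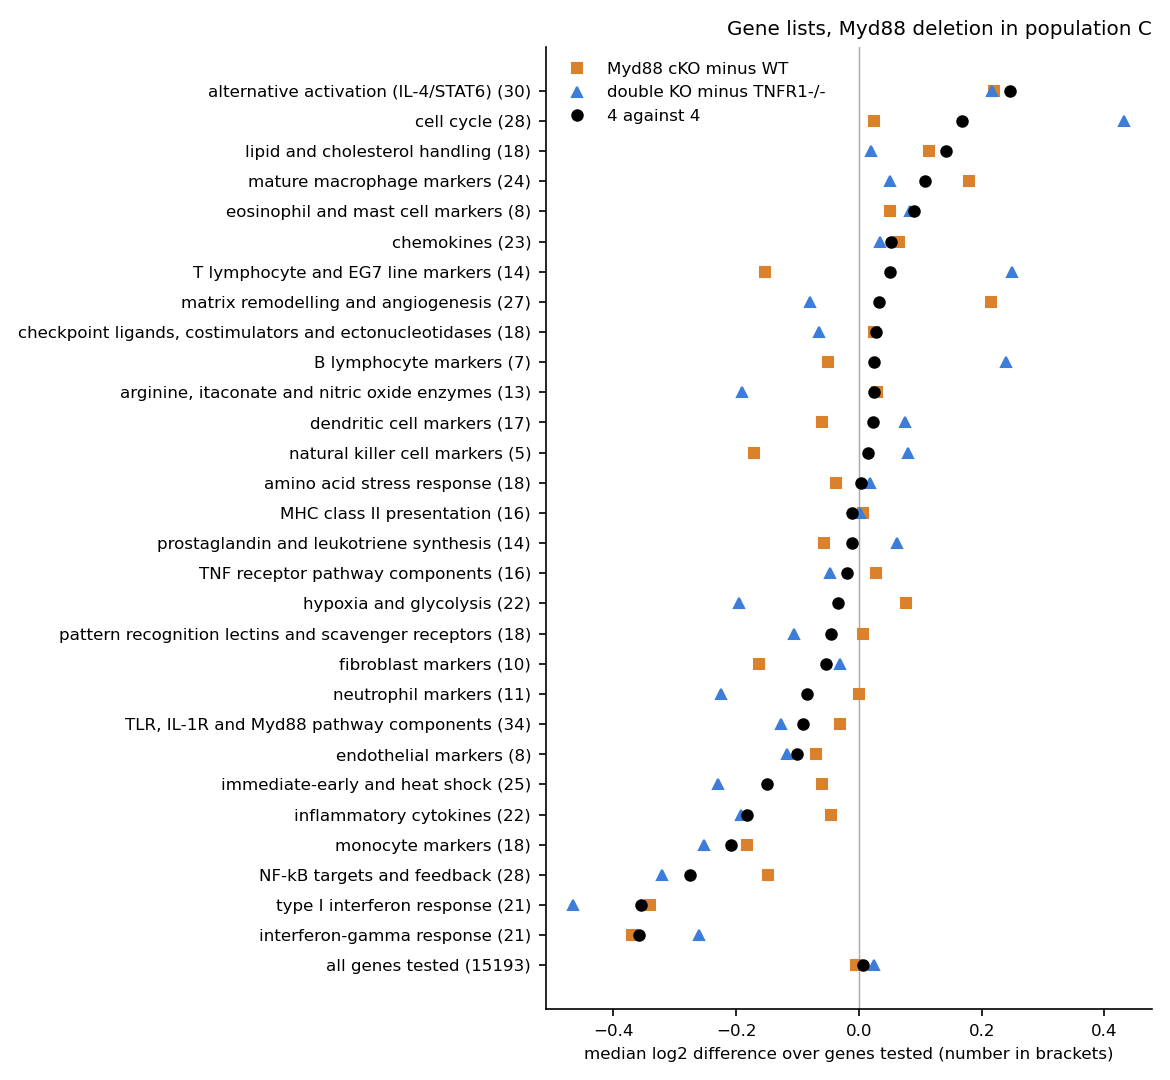
Median log2 difference with Myd88 deleted (horizontal axis) over the tested genes of each list drawn, their number in brackets, for all 8 arrays (circles), for conditional against WT hosts (squares) and for double-knockout against TNFR1-/- hosts (triangles). The interferon lists sit at -0.36 and alternative activation at 0.25, and the cell cycle list at 0.03 in TNFR1-intact and 0.43 in TNFR1-/- hosts. The sterol synthesis (0.30), sex-linked and sort gate lists are not drawn.

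Whether the Myd88 difference depended on TNFR1 was asked in a fit of the 4 genotypes. In TNFR1-intact hosts 1 of 15879 genes was called (0.0063%), Myd88 itself, at -1.99 ± 0.24 (adjusted p = 0.0456), and 1174 had an unadjusted p under 0.05. In TNFR1-/- hosts 3 were called (0.0189%), all lower: Il10, Il1a and Fpr2. Myd88 there differed by -1.52 ± 0.24 (adjusted p = 0.078). The interaction, tested with limma, was called for 0 of 15879 genes (0%), with 866 at an unadjusted p under 0.05 and a lowest adjusted p of 0.0686. The 29 genes called over both backgrounds had the same sign in each, which their choice on the average of both in part fixes.

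Cxcl3 and Il1a had the smallest interaction p, and they and Il10 are described here although no interaction was called. Il1a, the interleukin-1 alpha gene, read 10.28 and 9.96 in WT, 10.23 and 10.21 in conditional, 10.16 and 9.86 in TNFR1-/-, and 8.53 and 8.45 in double-knockout hosts. It was at one level in the first 3 genotypes and low in the last alone. It fell by 1.52 ± 0.16 in TNFR1-/- hosts (adjusted p = 0.00355). In intact hosts it differed by 0.10 ± 0.16 in the other direction, and the difference of these differences was -1.62 ± 0.22 (adjusted p = 0.0686). Cxcl3, a neutrophil-attracting chemokine, read 6.83 and 6.78 in WT, 8.01 and 7.59 in conditional, 7.49 and 7.5 in TNFR1-/-, and 6.39 and 6.82 in double-knockout hosts. Its interaction was -1.88 ± 0.25 (adjusted p = 0.0686). Il10 differed by -0.53 in intact hosts and by -1.82 in TNFR1-/- hosts (adjusted p = 0.00132 for the second), with an interaction adjusted p of 0.229. Leaving out replicate 1 of the double knockout raised the interaction calls from 0 to 25 and leaving out its replicate 2 to 2, and the TNFR1-/- calls went from 3 to 40 and to 1. They were 9 without replicate 1 of TNFR1-/-. Each of these fits leaves a genotype with 1 array, whose spread is taken from the others. In intact hosts the count went from 1 to 22 without either double-knockout array, to 3 without either TNFR1-/- array, and to 0 without WT replicate 1 or 2 or conditional replicate 2.

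**Figure D4:**
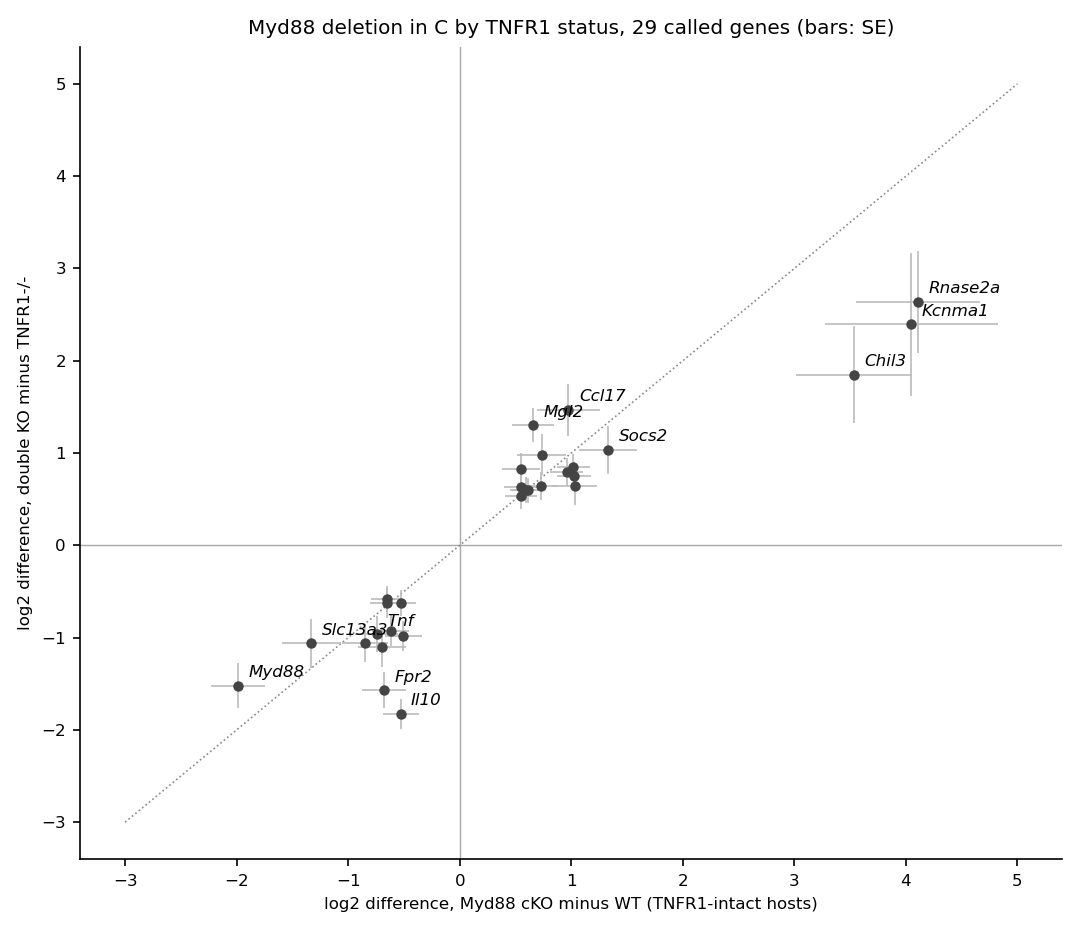
Log2 difference with Myd88 deleted in TNFR1-intact hosts (horizontal axis, conditional minus WT) against that in TNFR1-/- hosts (vertical axis, double knockout minus TNFR1-/-) for the 29 called genes, with bars of 1 SE and a dotted line of equality. Il10 and Fpr2 lie below the line with the larger fall in TNFR1-/- hosts. Kcnma1, Chil3 and Rnase2a (whose WT signals are below the detection filter) have the larger mean rise in intact hosts. The 2 double-knockout arrays differed widely for Kcnma1 (9.36 and 13.01) and Chil3 (8.10 and 9.99), the first of each being replicate 1. The interaction was called for none of these genes.

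The same deletion was next read in population A, the Ly6C+ MHCII- macrophages sorted from tumours in hosts of the same genotypes. Of the 29 genes, 26 had the same sign there, the others being Siglec1, Egr1 and Fpr2. The share of all genes with the same sign in both populations was not computed. The labels do not say whether A and C of a genotype came from the same tumours, so A cannot be taken as an independent set. The difference between populations was called for 0 of 16524 genes (0%), with 1532 at an unadjusted p under 0.05 and a lowest adjusted p of 0.064 in limma, so no gene is shown to be particular to either. Leaving out single arrays of A gave 7 calls without WT replicate 1, 8 without WT replicate 2, 15 without TNFR1-/- replicate 1 and 8 without conditional replicate 1. Kcnma1 rose in A too, from 8.95 and 7.97 in WT and 7.75 and 6.67 in TNFR1-/- hosts to 13.31 and 12.01 in conditional and 13.04 and 10.29 in double-knockout hosts (4.33 ± 0.68, adjusted p = 0.00425). Cd81, Itgax and Ephx1 likewise differed in A, by 1.27 ± 0.25 (adjusted p = 0.0121), 1.66 ± 0.19 (adjusted p = 0.000651) and 1.0 ± 0.21 (adjusted p = 0.0167). Il10, Siglec1 and Slc13a3, by contrast, read -0.20 ± 0.17, 0.12 ± 0.17 and -0.14 ± 0.19 in A, none called. Their differences between populations were -0.98 (adjusted p = 0.249), -1.07 (adjusted p = 0.243) and -1.06 (adjusted p = 0.277). The smallest p between populations belonged to the macrophage genes Ms4a7 and Folr2 and the endothelial cadherin Cdh5 (C minus A -2.04 ± 0.29, -1.48 ± 0.22 and -1.23 ± 0.18). In A these 3 differed by 2.04, 1.86 and 1.02, and in C Folr2 and Cdh5 differed by 0.38 and -0.21, not called.

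A second, independent set of arrays held CD11b-enriched cells of EG7 tumours in Myd88-/- and WT hosts, 5 arrays each on another chip. There 172 of 11915 genes were called (1.44%), 141 lower (1.18%) and 31 higher (0.26%). Of the 12 genes called lower in population C, 10 were tested on that chip, 9 had the same sign, and 5 were called lower: Myd88 (-0.75 ± 0.10, adjusted p = 0.00175), Slc13a3 (-1.55 ± 0.21, adjusted p = 0.00175), Tnf (-1.38 ± 0.08, adjusted p = 3.5e-06), Tnfsf9 (-1.49 ± 0.12, adjusted p = 4.0e-05) and Egr1 (-0.51 ± 0.10, adjusted p = 0.0213). These 5 are 5 of 12 genes of the first list and 5 of 141 of the second. Myd88 was the targeted gene in both sets, so its fall in both was fixed by the design. It is also counted in the 9, in the 10 and in their median. The median there of the 10 was -0.71, against 0.01 over 9797 genes tested on both chips. Of those 9797 genes, 46.7% had a negative and 53.3% a positive difference. Of the 17 genes called higher in population C, 13 were tested, 5 had the same sign, 0 were called, and the median was -0.12. Chil3, Mgl2 and Ccl17 read -0.49 ± 0.21, -0.62 ± 0.22 and -0.41 ± 0.31, and Cd81 and Ephx1 -0.12 ± 0.09 and 0.04 ± 0.11. The cells, the chip and the allele all differ between these sets, and their parts cannot be told apart.

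**Figure D5:**
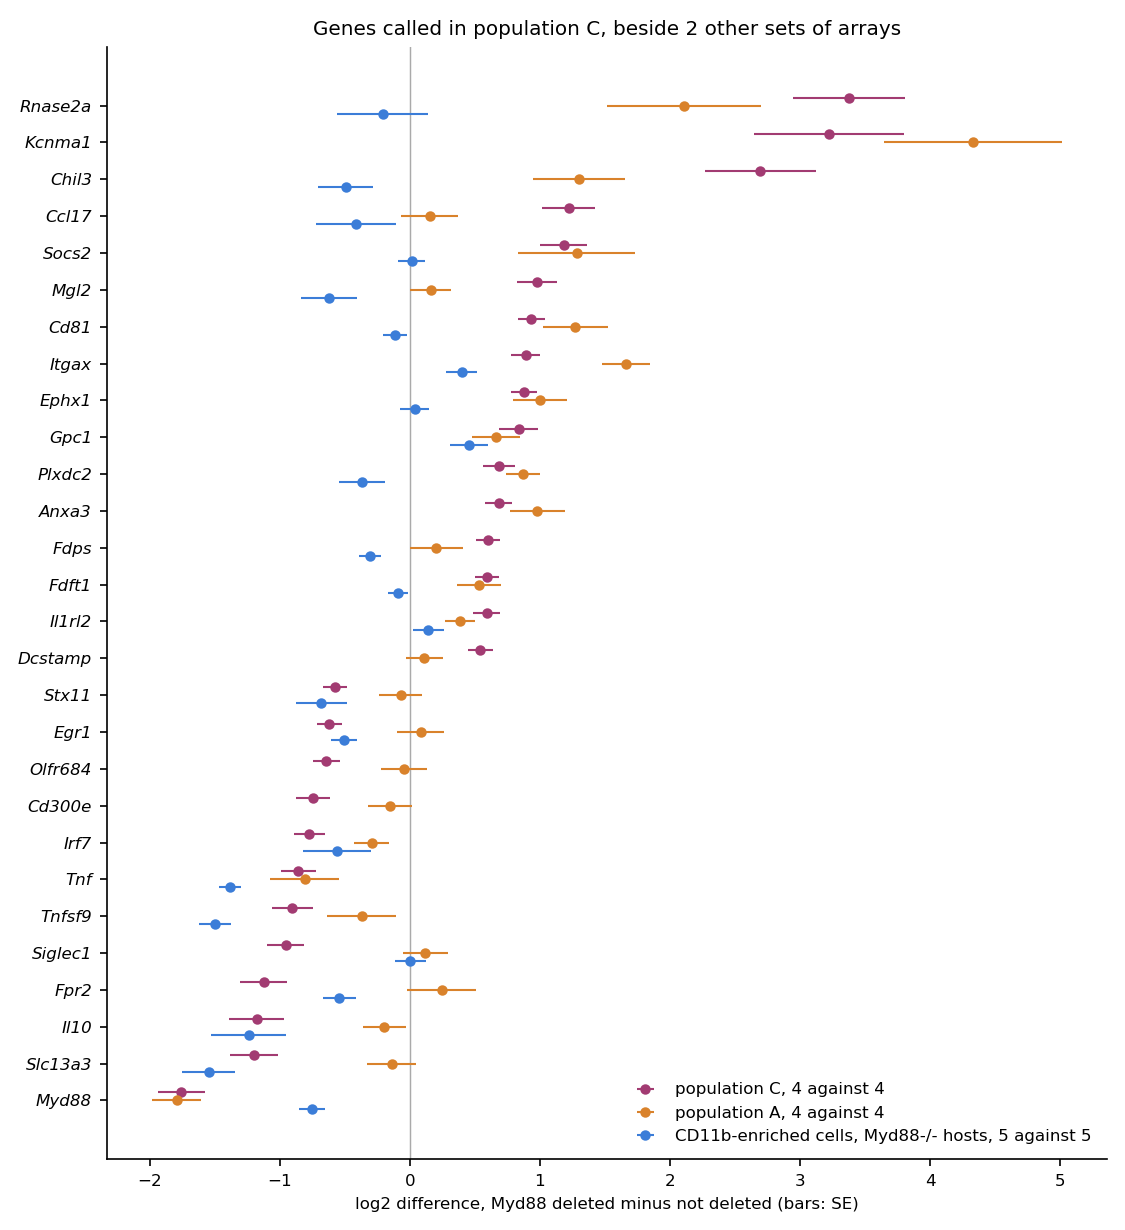
Log2 difference with Myd88 deleted or absent (horizontal axis, bars 1 SE) for the 28 named genes called in population C, in population C (4 arrays against 4), in population A (4 against 4) and in CD11b-enriched cells of Myd88-/- hosts (5 against 5, where the gene was tested). Tnf, Tnfsf9 and Slc13a3 lie below 0 in C and in CD11b-enriched cells, whereas Kcnma1, Itgax, Cd81 and Ephx1 lie above 0 in C and A, and the last 2 near 0 in CD11b-enriched cells.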

How the data were processed

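The authors deposited log2 signals of probe sets. Per the submitters' processing notes, these come from RMA in Affymetrix Expression Console 1.1. RMA puts arrays on one distribution, so a global shift in RNA content is removed. The genome build was not given in the sources used here. Arrays have no depth, so their number limits the precision. Of the 41345 probe sets of the sorted-cell chip, 23521 carried 1 symbol, 1814 several and 16010 none. Each gene took its probe set of highest mean, with symbols updated to GRCm38.p6. Genes above the 40th percentile of an array in at least 4 arrays (in the smallest group's number for other contrasts) were tested.

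Differences were fitted in R 4.3.3 with limma 3.58.1 (lmFit, then eBayes). Tests were two-sided, p-values were adjusted by Benjamini-Hochberg across every gene in the fit, and the threshold for a call was an adjusted p under 0.05. The 4 against 4 fit held the 8 arrays of population C with TNFR1 as a term (5 residual degrees of freedom). Genotype contrasts used 4 groups of 2, the contrast with A used 8 groups of 2, and the Myd88-/- comparison used its own 10 arrays. Each ± gives the standard error, and folds are computed from the log2 difference.

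The text names Myd88 and Tnfrsf1a, then up to 15 called genes per direction of largest change whose groups did not overlap. From each list the rule took up to 4 called members or, where none was called, the 2 of smallest p. Many of these uncalled members are not named in the text. Predicted genes are only counted. Further genes were added for context after their values were seen: Il1b, Oas3, Ifit2, Retnla, Ccl24, Il4ra, Stat6, Arg1, Dhcr7, Il1a, Cxcl3, Ms4a7, Folr2 and Gpc1. The members and lists were chosen with earlier results of these data known. Alternatives were leaving out each array, no filter, renewed quantile normalization, the mean of a gene's probe sets, a replicate block, all 16 sorted arrays, no TNFR1 term, 4 groups averaged, array weights, a trended robust prior and, added later, an Xist term. The fit was tested on simulated data of 15193 independent genes with 200 changed, and recovered 78% at a log2 difference of 0.5 and 100% at 1, 2 and 3, with 9 false among 198 calls. The simulated noise was independent between genes and arrays, and no array stood apart. These shares therefore do not give the recovery or the share of false calls on the real arrays, where Nfkbiz at -1.13 was not called. Replicate numbers were not taken as pairs, since their correlations missed the bar of 0.1 in some pairs of genotypes.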

Additional observations from a re-analysis of the deposited data

Results flagged for a closer look

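In groups of 4 or 5 arrays, the value of 1 array stood far from the others by Dixon's test for 15 of 174 gene and group combinations examined, and chance gives about 1 in 20. Among the 4 deleted arrays of population C, replicate 1 of the double knockout stood apart for Kcnma1 (9.36), Fdps (7.25) and Ier3 (11.17). Among the 4 undeleted arrays, replicate 2 of TNFR1-/- stood apart for Hmgcs1 (6.39) and Timp2 (9.03), replicate 1 of TNFR1-/- for Cdh5 (5.37), WT replicate 2 for Ptgs2 (11.52) and WT replicate 1 for Il2ra (5.59). These groups mix both TNFR1 backgrounds.

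In the CD11b-enriched cells, WT replicate 4 stood below the other WT arrays for Il10 (7.0) and Irf7 (5.18), and WT replicate 5 for Plxdc2 (6.83). Among the Myd88-/- arrays, replicate 3 was low for Irf7 (5.04), replicate 2 was low for Tnf (9.7) and high for Mgl2 (6.89), and replicate 5 was high for Siglec1 (3.08).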

How the results depend on the processing

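The 29 genes called in the 4 against 4 fit kept their sign under all 18 alternatives, which their choice on these same arrays in large part fixes. Of them 0 kept the call under all alternatives, and Myd88 kept it under 17. With single arrays left out the count ran from 1 to 77. It was 19 with no filter on low values, 3 in a fit of all 16 sorted arrays, 2 with no TNFR1 term and 44 with array weights, and between 22 and 32 in the others. In TNFR1-intact hosts the count of 1 ran from 0 to 22 with single arrays left out, was 0 with no filter, with quantile normalization and with the mean of probe sets, and was 2 in the fit of 16 arrays. In TNFR1-/- hosts the count of 3 ran from 1 to 40, was 1 in the fit of 16 arrays and 6 with the Xist term, which was chosen after seeing the data. Interaction calls ran from 0 to 25 and calls between populations from 0 to 15 with single arrays left out, and both stayed at 0 otherwise. The CD11b-enriched comparison ran from 86 to 275, and was 86 without WT replicate 2, 88 without WT replicate 3, 275 without WT replicate 4, and 108 and 96 without Myd88-/- replicates 3 and 5. The causes were not tested.

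With a replicate block the 4 against 4 count was 26, with 24 of the 29 genes among them, and the TNFR1-/- count was 12. Replicate numbers share no stated origin. Deviations of same-numbered arrays in C correlated at 0.12 to 0.26 among WT, conditional and double-knockout hosts (3 pairs of genotypes) and at -0.11 to -0.01 between each of these and TNFR1-/- hosts (3 pairs). A shared origin was therefore not assumed, and it is not settled by these values.

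Of 1225 values of named genes under the alternatives, 957 kept direction and side of the threshold, 247 lost the call, 15 gained one and 6 changed sign. The sign changes were of genes near 0: Tnfrsf1a was 0.12 without WT replicate 1, 0.06 without TNFR1-/- replicate 2, 0.05 without conditional replicate 2, 0.03 without double-knockout replicate 1 and 0.016 with the Xist term, and Lat, a T cell adaptor, was -0.001 without double-knockout replicate 2. With single arrays left out, Tnfrsf1a ran from -0.18 to 0.12 and Lat from -0.001 to 0.36. Averaging probe sets lowered Kcnma1 to 1.61 and Gpc1 to 0.39, and Socs2 to 0.70.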

Other observations

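Chemokine genes were split in direction, with a list median of 0.05 and 1 of 23 called. Ccl24 and Ccl8, eotaxin and monocyte-attracting chemokines, had differences of 1.70 ± 0.36 (adjusted p = 0.0924) and 0.86 ± 0.20 (adjusted p = 0.141), and Ccl6 one of 0.53 ± 0.13 (adjusted p = 0.174). Ccl5, Ccl3 and Cxcl1, which Toll-like receptor signals induce in macrophages, had differences of -0.68 ± 0.13 (adjusted p = 0.0577), -0.47 ± 0.11 (adjusted p = 0.163) and -0.81 ± 0.20 (adjusted p = 0.166). For Ccl3 and Cxcl1 all deleted arrays lay below the others. None of these 6 was called, and they were picked for their small p after the values were seen.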
